A study of Caenorhabditis elegans with 6 samples.

Results

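The 8 genes described here are the bZIP transcription factor genes zip-2, cebp-1, cebp-2, atfs-1, zip-3 and zip-10 and the infection response genes irg-1 and irg-2 of Caenorhabditis elegans. They were taken by symbol from a table of ribosome footprint counts over the coding sequences of 20189 protein-coding genes, and all 8 were found. Footprints are the pieces of mRNA shielded by ribosomes from digestion, so the count on a gene reflects its load of ribosomes. A change in mRNA level and a change in ribosomes per mRNA cannot be told apart here. The 6 libraries came from whole hermaphrodites collected at the L4 larval stage, kept at 23 °C, all heterozygous for rpl-36A(P55Q) over the mIn1 balancer chromosome. A change of this proline in the ribosomal protein eL42 is known to give ribosomes that resist cycloheximide (CHX), which stops ribosomes as they elongate, and the balancer brings an unchanged copy, so the animals can make both kinds of ribosome. In the no CHX group, 3 libraries came from animals grown for 2 days from synchronized eggs on plates without the drug. In the CHX group, 3 came from animals grown for 3 days from eggs on plates with 500 µg/ml. Treatment and culture time therefore changed together and cannot be told apart.

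Worms watch over their own translation. When a toxin or drug stops ribosomes, the bZIP factor ZIP-2, together with its partner CEBP-2, is known to switch on irg-1 and other genes that bacterial infection also switches on, mainly in the intestine. The zip-2 transcript is known to carry upstream reading frames that hold back its main coding sequence while translation runs normally. CEBP-1 acts below the DLK-1 kinase cascade in neurons and in stress, ATFS-1 enters the nucleus when mitochondrial import fails and sets off the mitochondrial unfolded protein response, ZIP-3 binds and restrains ATFS-1, and ZIP-10 drives a response to cold. A bZIP protein pairs through a leucine zipper and holds DNA with an adjoining basic region.

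Libraries held 1601009 to 1901815 reads in all. Libraries of a group varied beyond counting error, with a chi-square per degree of freedom of 2.00 between no CHX replicates 1 and 2 and 3.43 to 3.66 between either of them and no CHX replicate 3. The mutated gene rpl-36.A fell from 932 ± 66.4 to 658 ± 67.4 CPM (SD, n = 3 each). Levels are in CPM, which are counts divided by the library total after TMM, a correction for shifts in composition. Oocyte markers rose in 6 of 6 cases, with a summed level of 180.6 to 333 CPM in the no CHX libraries and 3601 to 4107 CPM in the CHX libraries. Sperm markers fell in 3 of 4 tested cases, and the summed level of 5 went from 222 to 266 CPM to 134.5 to 158 CPM. Body wall muscle markers fell in 3 of 4 cases (9805 to 10840 CPM without CHX and 7430 to 8402 CPM with it), and the summed level of 4 epidermal markers was 606 to 765 CPM without CHX and 334 to 668 CPM with it, of which 0 passed with edgeR (2 at an unadjusted p under 0.05), 1 with DESeq2 and 0 with limma-voom.

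Footprints on both infection response genes were several-fold higher with CHX, those on the factor genes zip-2 and cebp-1 were higher by a smaller amount, and those on zip-3 were lower. Of the 8 genes, 4 rose, 1 fell and 3 did not pass (quasi-likelihood test of edgeR, with an adjusted p under 0.05 by Benjamini-Hochberg over 10632 genes). Among all tested genes 22.2% rose and 20% fell, 42.2% in either direction. All 8 genes passed the filter on low counts, and each held between 146 and 2033 reads over the 6 libraries. Their median log2 fold change, CHX over no CHX, was 0.46, beside 0.03 for all tested genes. The CHX libraries all lay above the no CHX libraries for 3 of the 8 and all below them for 1, and among all tested genes these shares were 27.7% and 24.7%, or 52.5% together. As the 8 were chosen with earlier results in view, their counts are a description.

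**Figure D1:**
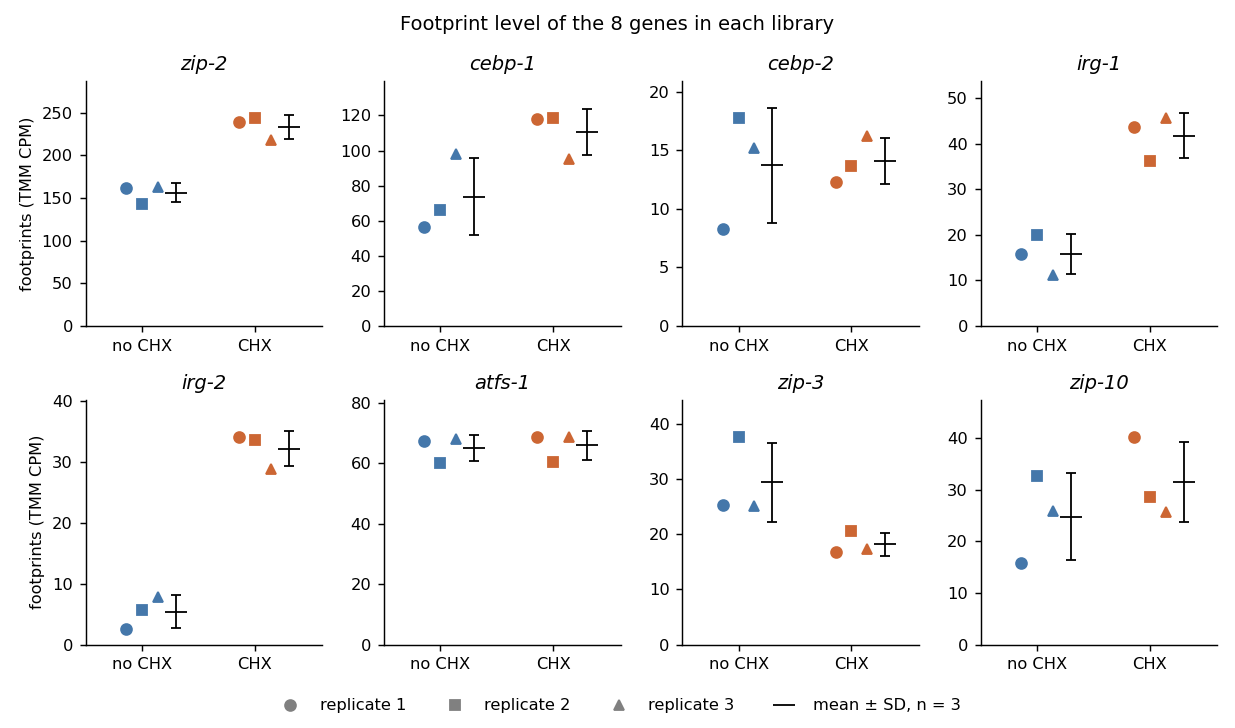
Footprint level of each gene in TMM-scaled CPM (vertical axis, a separate scale for each gene, starting at 0) in the no CHX and CHX libraries; symbols are replicates and the bar is the mean ± SD over 3. The CHX libraries lie above all no CHX libraries for zip-2, irg-1 and irg-2 and below them for zip-3, and the groups overlap for cebp-1, cebp-2, atfs-1 and zip-10.

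The factor gene zip-2 (WBGene00019327, WBcel235 chromosome III, 833858 to 835808, plus strand) was at 162, 143 and 163 CPM in the no CHX libraries, given here and below in the order of replicates 1, 2 and 3. The CHX libraries held 240, 243 and 218 CPM. Every CHX library thus lay above every no CHX library. The mean rose from 156 ± 11.03 to 234 ± 13.9 CPM (SD, n = 3 each), a change of 0.58 on the log2 scale (SE 0.105, adjusted p = 0.000258 by edgeR), or 1.495-fold with a 95% interval of 1.28 to 1.74. Genes with a larger log2 fold change made up 20.4% of those tested, so the rise of zip-2 was not among the large ones. The gene held 797 reads without CHX and 1236 with it, the most of the 8, and its call held in all 12 alternative settings, with log2 fold changes from 0.47 to 0.63. The counts cover the annotated coding sequence and do not report on the upstream reading frames.

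Its partner gene cebp-2 (WBGene00016754, chromosome I, 6252986 to 6253584, plus strand) was the most weakly covered, with 71 reads without CHX and 75 with it. Its level was 8.25, 17.7 and 15.2 CPM without CHX and 12.3, 13.7 and 16.2 CPM with it. All CHX values lay inside the no CHX range, whose lowest value came from no CHX replicate 1. The means were 13.7 ± 4.90 and 14.1 ± 1.99 CPM (SD, n = 3 each), with a change of 0.03 on the log2 scale (SE 0.286, adjusted p = 0.951 by edgeR). The 95% interval ran from 0.672-fold to 1.55-fold, so a change as large as that of zip-2 was not excluded at this depth.

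The infection response gene irg-1 (WBGene00015574, chromosome V, 3523587 to 3524575, plus strand), long used as a reporter of ZIP-2 activity, stood at 15.9, 20.005 and 11.2 CPM in animals without the drug. In the CHX libraries the levels were 43.6, 36.1 and 45.5 CPM. The lowest CHX library stood well above the highest no CHX library. The mean rose from 15.7 ± 4.39 to 41.7 ± 4.98 CPM (SD, n = 3 each), a change of 1.415 on the log2 scale (SE 0.212, adjusted p = 4.53e-05 by edgeR), or 2.67-fold with a 95% interval of 1.96 to 3.63. Of all tested genes, 5.76% had a larger log2 fold change.

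The other infection response gene, irg-2 (WBGene00016783, chromosome V, 4042404 to 4043599, plus strand), showed the largest change of the 8. Without CHX it was at 2.54, 5.72 and 7.86 CPM, from 4, 10 and 14 reads. With CHX it was at 34.1, 33.6 and 28.8 CPM, from 61, 54 and 55 reads. The groups were far apart, and the CHX libraries lay close together. The mean rose from 5.37 ± 2.68 to 32.2 ± 2.93 CPM (SD, n = 3 each), a change of 2.54 on the log2 scale (SE 0.288, adjusted p = 2.33e-06 by edgeR), or 5.81-fold with a 95% interval of 3.81 to 8.84. Only 1.98% of tested genes had a larger log2 fold change. The lower end of the no CHX level rests on few reads, and without no CHX replicate 1 the log2 fold change was 2.19. Both irg-1 and irg-2 passed in all 12 alternative settings.

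Marker levels of the intestine and of oocytes are given here as background for zip-2, irg-1 and irg-2. Of 7 intestinal markers listed, 6 were matched and tested. With edgeR 4 fell and the others did not pass, and 3 passed with DESeq2. The summed level of the 6 was 2663 to 3081 CPM in the no CHX libraries and 2161 to 2623 CPM in the CHX libraries, with no marker at 0. As a sum, the intestinal markers were at 0.813 of their no CHX level. The oocyte markers, of which 6 of 6 rose, were at 15.4 times theirs. In whole animals, fewer cells of a type and less RNA per cell cannot be told apart, and the part of these levels in the rise of irg-1 and irg-2 was not tested.

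Relative to zip-2, cebp-1 and cebp-2, footprints on irg-1 and irg-2 were higher in every CHX library than in any no CHX library. The ratio of reads of 2 genes within a library does not depend on scaling, and this comparison was added after the values were seen. The log2 ratio of irg-1 to zip-2 reads was -3.36, -2.84 and -3.86 without CHX and -2.46, -2.75 and -2.26 with it. Its mean was 0.86 higher with CHX, and the groups did not overlap. For irg-2 the log2 ratio to zip-2 was -6, -4.65 and -4.37 without CHX and -2.81, -2.86 and -2.92 with it, a difference of 2.14. The no CHX ratios rest on 4, 10 and 14 irg-2 reads (SD 0.871) and the CHX ratios on 61, 54 and 55 (SD 0.0528), so counting error is larger without CHX and the 2 spreads were not compared. Against cebp-1 the differences were 0.83 for irg-1 and 2.11 for irg-2, and against cebp-2 they were 1.34 and 2.625. In each of these 6 ratios every CHX library lay above every no CHX library, and the two-sided exact permutation test gave p = 0.1, the smallest it can give with 3 against 3 (0.1 after adjustment over the 6), so none could pass. The margin was narrow for irg-1 against cebp-1, where the highest no CHX ratio was -1.73 and the lowest CHX ratio -1.71. Without no CHX replicate 3 the difference for irg-1 was 0.38 against cebp-1 and 0.61 against zip-2. The log2 ratio of irg-2 to irg-1 differed by 1.28 between groups, but the groups overlapped (two-sided exact permutation p = 0.2).

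**Figure D2:**
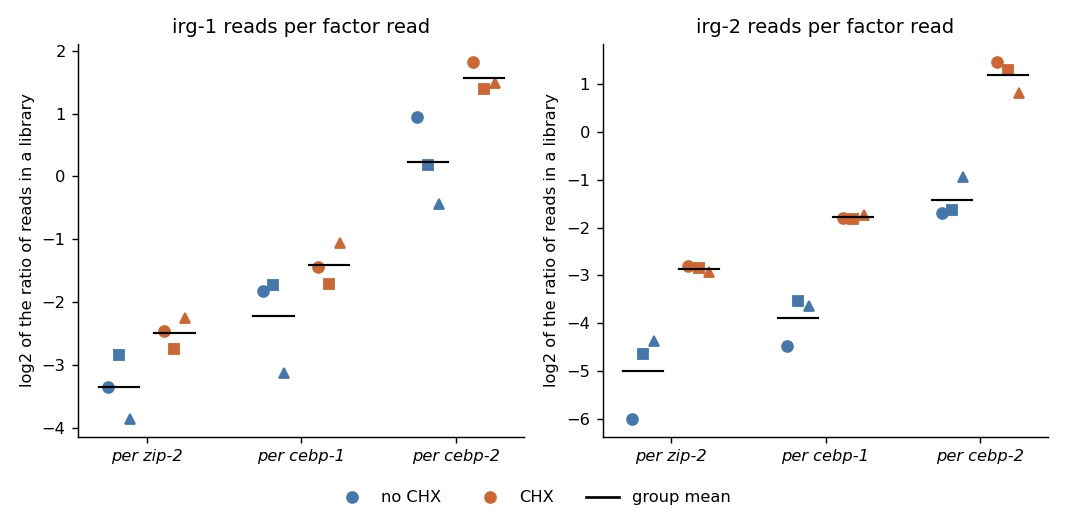
Log2 of the ratio of irg-1 (left) and irg-2 (right) reads to the reads of zip-2, cebp-1 or cebp-2 in the same library; circles, squares and triangles are replicates 1, 2 and 3, and lines are group means. Every CHX library lies above every no CHX library in all 6 ratios, and the 3 CHX ratios of irg-2 to zip-2 run from -2.92 to -2.81.

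The gene cebp-1 (WBGene00016997, chromosome X, 1452695 to 1454000, minus strand), whose protein is related to mammalian C/EBP factors, showed 56.4, 66.3 and 98.2 CPM without the drug. With it the levels were 118, 118 and 95.3 CPM. The groups overlapped, because no CHX replicate 3 stood above CHX replicate 3. The mean rose from 73.7 ± 21.8 to 110 ± 13.2 CPM (SD, n = 3 each), a change of 0.58 on the log2 scale (SE 0.181, adjusted p = 0.0217 by edgeR). The size matched that of zip-2, but the call was less firm. It was lost when no CHX replicate 1 was left out (0.38, adjusted p = 0.100 by edgeR), and likewise for no CHX replicate 2 (0.45, 0.127), CHX replicate 1 (0.53, 0.0623) and CHX replicate 2 (0.53, 0.0726), and without no CHX replicate 3 the log2 fold change was 0.80 (adjusted p = 0.000189 by edgeR). Over the 6 alternatives that kept all libraries, adjusted p-values ran from 0.00025 to 0.0485. Of 7 neuronal markers, 2 rose with edgeR and 0 passed with DESeq2, and their summed level was 302.5 to 363 CPM in the no CHX libraries and 389 to 436 CPM in the CHX libraries. Their part in the cebp-1 value was not tested.

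The list of DLK-1 and JNK-like kinase pathway genes included the kinase gene kgb-1. Among all tested genes 22.2% rose and 20% fell. Of the 10 tested in this list, 7 did not pass and 3 rose (median log2 fold change 0.23). They were the MAP kinase kinase genes mkk-4 (log2 fold change 1.15, adjusted p = 0.0307 by edgeR) and mek-1 (1.15, adjusted p = 1.21e-05 by edgeR), and uev-3 (0.90, adjusted p = 0.0375 by edgeR), a ubiquitin-conjugating enzyme variant of the DLK-1 cascade. The gene mek-1 went from 30.1 to 67.0 CPM with no overlap of groups, whereas mkk-4 had 22 reads without CHX and 51 with it. For dlk-1 the log2 fold change was 0.225 and for the p38 gene pmk-3 it was 0.12, and neither passed. By edgeR, mek-1 passed with each single library left out, whereas mkk-4 did not pass without no CHX replicate 1 (adjusted p = 0.0777), no CHX replicate 2 (0.169) or CHX replicate 2 (0.181), nor with DESeq2 (adjusted p = 0.103). Its lowest log2 fold change with a library left out was 0.79. Without no CHX replicate 1, no CHX replicate 2 or CHX replicate 2, or with DESeq2, mek-1 was the only gene of the list that rose. The call of uev-3, with 34 reads without CHX and 66 with it, was thus lost there too. Without CHX replicate 1, 1 gene of the list fell.

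**Figure D3:**
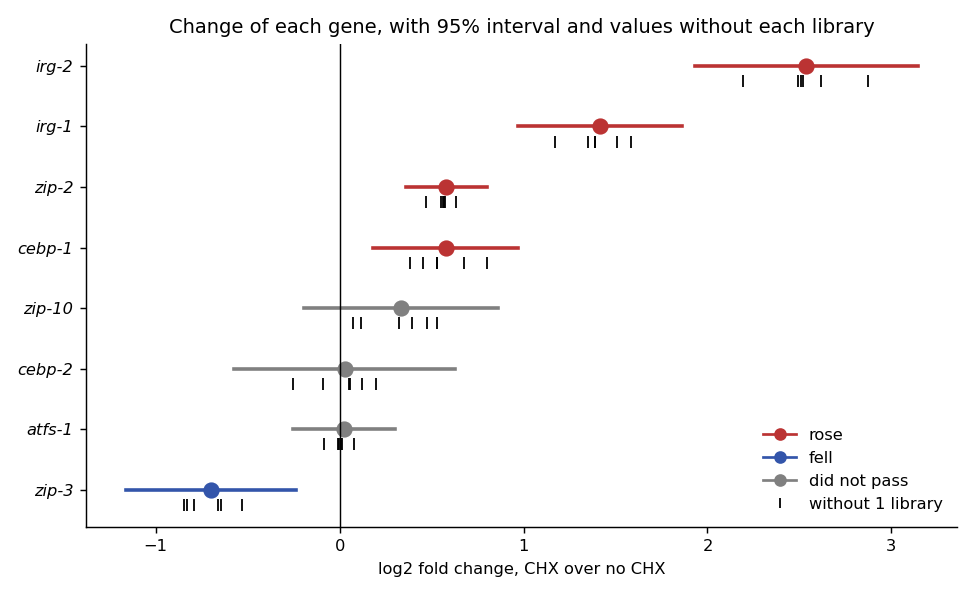
Log2 fold change (horizontal axis, CHX over no CHX) of each gene with its 95% interval from edgeR; black ticks below are the values with 1 library left out. The intervals of irg-2, irg-1, zip-2 and cebp-1 lie above 0 and that of zip-3 below it, and those of zip-10, cebp-2 and atfs-1 span 0.

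The mitochondrial stress factor gene atfs-1 (WBGene00013878, chromosome V, 14193685 to 14197693, plus strand) had nearly the same level in all libraries. These were 67.2, 60.015 and 67.9 CPM without CHX and 68.7, 60.4 and 68.6 CPM with it. The means were 65.1 ± 4.38 and 65.9 ± 4.77 CPM (SD, n = 3 each), and the log2 fold change was 0.02 (SE 0.132, adjusted p = 0.916 by edgeR). The 95% interval ran from 0.8375-fold to 1.23-fold, which leaves out the size measured for zip-2.

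Its restraining partner gene zip-3 (WBGene00012330, chromosome II, 13951906 to 13957543, minus strand) was the faller. Its levels were 25.4, 37.7 and 25.3 CPM without CHX and 16.8, 20.5 and 17.3 CPM with it. All CHX libraries lay below all no CHX libraries, and no CHX replicate 2 was the highest. The mean fell from 29.5 ± 7.17 to 18.2 ± 2.05 CPM (SD, n = 3 each), a change of -0.70 on the log2 scale (SE 0.22, adjusted p = 0.0159 by edgeR). The call was lost when no CHX replicate 2 was left out (-0.53, adjusted p = 0.0804 by edgeR), as for CHX replicate 1 (-0.65, 0.0510) and CHX replicate 3 (-0.66, 0.0560), and with DESeq2 (-0.73, adjusted p = 0.0524). In the other alternatives adjusted p-values ran from 0.00576 to 0.0219. Set against atfs-1 within each library, the log2 ratio of zip-3 reads was -1.17 ± 0.431 without CHX and -1.86 ± 0.265 with it (SD, n = 3 each), and the groups did not overlap. The two-sided exact permutation p was 0.1, again the smallest possible, and this ratio too was chosen after the values were seen.

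Genes of the mitochondrial unfolded protein response, which ATFS-1 serves, are set beside all tested genes, of which 22.2% rose and 20% fell. Of 16 tested in the list, 3 rose and 5 fell, with a median of 0.03, and these counts are not read as a trait of the list. The fallers were tomm-22 (-0.70) and timm-23 (-0.58), for parts of the protein import machinery, gpd-2 (-0.67), for a glycolytic enzyme, hsp-60 (-0.65), for the mitochondrial chaperonin, and dnj-10 (-0.35), for a co-chaperone. The chaperone gene hsp-6, the usual reporter of this response, had 1238 CPM without CHX and 1071 CPM with it (log2 fold change -0.21, adjusted p = 0.0561 by edgeR). It narrowly missed the threshold (unadjusted p = 0.0243 by edgeR). Its CHX libraries all lay below its no CHX libraries, as for 24.7% of all tested genes. The fallers of the list numbered 6 with limma-voom and 4 with DESeq2. The risers hda-1 (0.47), met-2 (0.44) and jmjd-1.2 (0.31) encode histone-modifying enzymes, and 1 of the list rose without no CHX replicate 2, where hda-1 was at 0.36. The ubiquitin ligase gene wwp-1, whose protein is known to act on ZIP-3, had a log2 fold change of 0.08 that did not pass.

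The cold-response factor gene zip-10 (WBGene00012101, chromosome V, 11650079 to 11650774, minus strand) varied widely within both groups. The no CHX libraries held 15.9, 32.6 and 25.8 CPM and the CHX libraries 40.2, 28.6 and 25.6 CPM. The groups overlapped, with no CHX replicate 1 lowest and CHX replicate 1 highest. The means were 24.8 ± 8.41 and 31.5 ± 7.70 CPM (SD, n = 3 each), with a change of 0.33 on the log2 scale (SE 0.247, adjusted p = 0.299 by edgeR) and a 95% interval from 0.876-fold to 1.82-fold. Its repressor gene isy-1 had 41.8 and 43.9 CPM (log2 fold change 0.07, adjusted p = 0.769 by edgeR). Of the protease genes listed with it, cpr-3 rose (0.83, adjusted p = 0.000301 by edgeR) and asp-17 fell (-1.48, adjusted p = 0.000937 by edgeR).

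Transcripts of zip-2, zip-3 and zip-10 overlap the annotated ends of the neighbouring genes dos-3, sre-44 and skp-1 by 58, 28 and 12 bases. Whether the counting used strand is not stated.

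Of the 5 other infection response genes in the table, 3 were tested and all 3 rose, and the median over the 5 tested with irg-1 and irg-2 included was 1.79. The gene irg-5, for an immune effector with a CUB-like domain that is known to depend on the p38 kinase PMK-1, rose from 461 to 2589 CPM (log2 fold change 2.49, adjusted p = 2.09e-11 by edgeR). The gene irg-4, of the same kind, rose from 130 to 450 CPM (1.79, adjusted p = 9.74e-10 by edgeR), and irg-7 rose by 0.61 on the log2 scale. In each of the 3 all CHX libraries lay above all no CHX libraries, as for 27.7% of all tested genes. The genes irg-3, with 27 reads in each group, and irg-6, with 6 reads in the CHX libraries, were below the filter.

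Among genes of the PMK-1 kinase pathway itself, 3 of 8 tested rose and 1 fell (median 0.12). The shares over all tested genes were 22.2% and 20%. The TIR domain gene tir-1 rose by 0.70 on the log2 scale (adjusted p = 0.00444 by edgeR), hlh-30, for a factor of autophagy and defence, had a log2 fold change of 0.50 (adjusted p = 0.0405 by edgeR), and the bZIP factor gene atf-7, whose protein PMK-1 targets, one of 0.30 (adjusted p = 0.0262 by edgeR). The kinase gene pmk-1 fell by 0.39 (adjusted p = 0.0436 by edgeR). With any of no CHX replicate 1, CHX replicate 1 and CHX replicate 2 left out, 1 gene of the list rose, and the call of pmk-1 was kept when no CHX replicate 3 was left out and lost when any other library was, at values of -0.41 to -0.36. For hlh-30 it was kept when no CHX replicate 2 was left out and lost otherwise, at values from 0.24 (no CHX replicate 3 left out) to 0.55.

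Among genes of detoxification that respond to blocked translation, 3 of 7 tested rose and 3 fell (median -0.38, the same with pgp-7 at its bound below). Over all tested genes the shares were 22.2% and 20%. The risers were P-glycoprotein genes, which encode ATP-driven export pumps. Footprints on pgp-5 rose from 36.9 to 192 CPM (log2 fold change 2.37, adjusted p = 3.26e-09 by edgeR) and those on pgp-6 from 39.3 to 85.1 CPM (1.11). For pgp-7 there were 24, 12 and 17 reads in the CHX libraries and none in the no CHX libraries, so that it was at least 17-fold higher against a floor of 3 reads over the group (adjusted p = 1.19e-05 by edgeR). These are related genes of a single family that can share reads, and how shared reads were counted is not stated. The fallers were glutathione S-transferase genes. The gene gst-10 fell from 198 to 48.5 CPM (-2.03), gst-4, a target of the bZIP factor SKN-1, from 181 to 70.7 CPM (-1.36), and gst-5 by 0.71.

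Among all tested genes 22.2% rose and 20% fell. Of a list of general control and stalling genes, which are not all sensors, 2 of 6 tested rose and 3 fell (median 0.07). The risers gcn-2 (log2 fold change 0.73, adjusted p = 0.00232 by edgeR) and pek-1 (0.885, adjusted p = 0.0112 by edgeR) encode the kinases that phosphorylate the initiation factor eIF2 alpha. The fallers were eif-2alpha itself (-0.38), gcn-1 (-0.27), whose protein activates GCN-2, and the RNA helicase gene hel-1 (-0.46). The worm ZAK kinase gene zak-1 had 24 reads without CHX and 33 with it and did not pass (0.40, adjusted p = 0.425 by edgeR).

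Of the other 23 worm bZIP factor genes in the table, 13 were tested. Of these, 4 rose, beside 22.2% of all tested genes, and the other 9 did not pass. The risers were atf-6 (log2 fold change 0.73, adjusted p = 0.00688 by edgeR), for a factor of the endoplasmic reticulum stress response, zip-12 (0.55, adjusted p = 0.0153 by edgeR), the CREB gene crh-1 (0.43, adjusted p = 0.0448 by edgeR) and atf-7. Among all 19 bZIP genes tested, 16 had a log2 fold change above 0, with a median of 0.23. The median of all tested genes was 0.03, and 50.7% of them lay above the 0.02 of atfs-1. The changes of zip-2 and cebp-1 lay within the range of the other bZIP factors that passed. The gene skn-1 had 127 and 126 CPM, and crh-2 had 41.7 and 41.6 CPM. The call of atf-6 held with each single library left out (edgeR adjusted p from 0.0158 to 0.0343) and was lost with DESeq2 (adjusted p = 0.0555). The number of calls among the 13 moved with single libraries, with 1 riser without no CHX replicate 1 or no CHX replicate 2, 2 without CHX replicate 2 or CHX replicate 3, and 1 faller without no CHX replicate 2. The 10 bZIP genes below the filter, among them zip-7 and ces-2 with 4 reads each in the CHX libraries, were not tested.

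**Figure D4:**
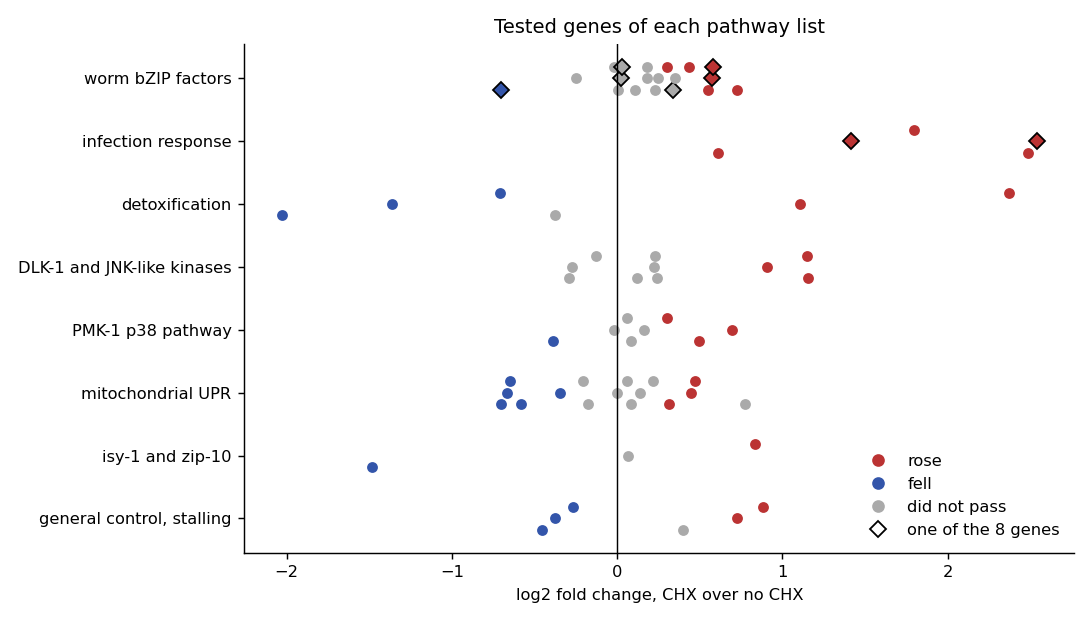
Log2 fold change (horizontal axis, CHX over no CHX) of every tested gene of each pathway list except pgp-7, which had no reads without CHX; red rose, blue fell and grey did not pass, and diamonds mark the 8 genes. All 5 infection response genes lie above 0, between 0.61 and 2.54, while the other lists hold genes on both sides of 0.

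The profiles of zip-2, irg-1 and irg-2 over the 6 libraries were set against those of 5391 other genes of at least 10 CPM, by the root mean square difference of log2 CPM centred on each gene's mean. The closest to zip-2 were the chromatin remodelling gene swsn-7 (0.0283), the Polycomb methyltransferase gene mes-2 (0.0336) and ntl-11 (0.0419), of the CCR4-NOT complex. The closest to irg-1 were the cathepsin-like protease gene cpr-4 (0.0816), faah-1 (0.128) and ddn-1 (0.153). The closest to irg-2 were the epidermal growth factor gene lin-3 (0.226), nlp-28 (0.291) and the oocyte RNA-binding gene puf-3 (0.317). Among the 8 genes, zip-2 and cebp-1 were the closest pair (0.235). The profile of zip-2 was closer to those of atfs-1 (0.298), zip-10 (0.398) and cebp-2 (0.465), which did not pass the test, than to that of irg-1 (0.525), and irg-1 and irg-2 were 0.833 apart. With 2 groups, such likeness mostly compares the size of the difference between them.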

How the data were processed

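Synchronized eggs were grown with or without CHX. Lysate was spun over a 34% sucrose cushion, RNA of 26 to 34 nucleotides was taken, and D-Plex Small RNA-seq libraries were built, per the labels' protocols. Per the file headers, the authors deposited raw counts of reads on coding sequences, 1 line for each gene. DESeq2 and WBcel235 are named by the submitters' processing notes, whereas an aligner, strand and the handling of shared reads are not given there. Printed positions are those of the deposited table's transcripts, in bases. The table's length column is a genomic span, so levels were not compared between genes.

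Genes were kept with filterByExpr (minimum count 10). TMM scaling was applied, and edgeR 4.0.16 (robust quasi-likelihood test, R 4.3.3) was run on the 6 libraries with a group term alone, at a Benjamini-Hochberg adjusted p under 0.05. The steps were tested on simulated data. Replicates are not said to be separate cultures, so p-values reflect library-to-library spread that may be technical. Replicate numbers did not pair the libraries (correlations of deviations -0.113, -0.0803 and -0.0837). No libraries were near-duplicates. Alternatives were median-of-ratios factors, no filter, DESeq2 1.42.0, limma-voom (limma 3.58.1), a replicate block, leaving out the 100 most abundant genes, and leaving out each library. The 8 genes, the lists and the markers were chosen with earlier results of these data known. Named genes are the 8, up to 2 risers and 2 fallers of each list (or its smallest p), the 3 closest profiles of zip-2, irg-1 and irg-2, overlapping genes and rpl-36.A. Other list members were named after their values were seen. Of the symbols in the gene lists, atf-4, irg-8, ifk-1 and znf-598 were not matched. Of 7 intestinal markers listed, 6 were matched. Protein and promoter sequences were not used here.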

Additional observations from a re-analysis of the deposited data

How the results depend on the processing

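The rises of zip-2, irg-1 and irg-2 held in all 12 alternatives, 6 of which left out 1 library. The call of zip-3 was lost with DESeq2 (0 of the 8 fell, 1 at an unadjusted p under 0.05). With 1 library left out, 3 to 4 of the 8 rose and 0 to 1 fell, and their median log2 fold change ran from 0.229 to 0.554. DESeq2 called as many infection response genes, detoxification genes and isy-1 and zip-10 pathway genes as edgeR. Of the bZIP factors it called 2 risers and 0 fallers (4 and 1 at an unadjusted p under 0.05), and 0 risers among those outside the 8 (2 unadjusted). Of the DLK-1 and JNK-like kinase genes it called 1 riser, and of the PMK-1 genes 1 riser and 0 fallers (0 unadjusted). The replicate numbers did not pair the libraries. With the replicate block, 2 of the bZIP factors outside the 8 and 1 of the DLK-1 and JNK-like kinase genes rose (mkk-4 had an edgeR adjusted p of 0.0589) and 0 of the PMK-1 genes fell (1 unadjusted), and no call of the 8 genes changed. Without the 100 most abundant genes, 3 infection response genes were left and all rose.

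With 1 library left out, 2 to 8 bZIP factors rose and 0 to 1 fell (median 0.134 to 0.324), and outside the 8 these counts were 1 to 6 and 0 to 1. Each time 5 infection response genes rose (median 1.58 to 1.82). Of the DLK-1 and JNK-like kinase genes 1 to 3 rose and 0 to 1 fell (median 0.0716 to 0.243), of the PMK-1 genes 1 to 2 rose and 0 to 1 fell, and of the mitochondrial stress genes 1 to 3 rose (median -0.0876 to 0.0318). The median ran from -0.638 to 0.00469 for detoxification genes and from -0.281 to 0.110 for general control and stalling genes. The cause of these shifts was not tested. Few reads limit what can be said of cebp-2, irg-2 without CHX, mkk-4, pgp-7 and the genes below the filter. The floor of 3 reads accounts for counting error alone.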

Other observations

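For xbp-1 and pek-1, a pair of endoplasmic reticulum stress genes singled out after their values were seen, no CHX replicate 3 was the highest of its group. The bZIP factor gene xbp-1, whose protein drives the unfolded protein response of that compartment, held 601, 624 and 1045 reads without CHX (replicates 1, 2 and 3 in order) and 831, 786 and 908 with it. Its log2 fold change was 0.11 (edgeR adjusted p = 0.656), and without no CHX replicate 3 it was 0.325 (edgeR adjusted p = 0.0129). The kinase gene pek-1 had 44, 46 and 97 reads without CHX and 113, 116 and 128 with it, and its log2 fold change went from 0.885 to 1.27 without that library. For atf-6, another gene of that stress response, it was the lowest of its group, at 16.3 CPM against 16.5 and 19.4. The same library was the highest of its group for cebp-1 and for irg-2 and the lowest for irg-1.

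Of the 10 bZIP genes below the filter on low counts, 6 had a higher mean CPM with CHX and 4 a lower one, and no test was made. All CHX libraries lay above all no CHX libraries for 5 of them and below for 1. Among all tested genes these shares were 27.7% and 24.7%. The shares among all genes below the filter were not computed, so these counts are not read as a trend. Among the higher, the gene zip-8 had 0, 0 and 1 reads without CHX and 3, 5 and 2 with it, maf-1 had 1, 0 and 1 against 6, 4 and 5, and atf-8 had 0, 3 and 3 against 10, 4 and 9. Among the lower, zip-11 had 6, 6 and 9 reads without CHX and 6, 3 and 4 with it, zip-9 had 20 in all against 17, atf-2 had 27 against 24 and atf-5 had 8 against 7. The genes given here were singled out after their values were seen.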
